A study of Mus musculus with 6 samples.

Results

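Irf4, Prdm1, Nfil3 and Bhlhe40 encode 4 transcription factors of activated and effector lymphocytes, and they are described here in OT-I cells with and without Themis. The genes were taken by symbol from the deposited table of 854 genes, of which 794 had enough counts to be tested, and all 4 were among those tested. OT-I cells are mouse CD8 T cells with a transgenic T cell receptor for an ovalbumin peptide. Naive cells were enriched from spleen and lymph nodes and cultured for 3 days in IL-2 (1 µg/ml), and there were 3 libraries per genotype. The WT group was labelled OT-I wild-type and the other group OT-I Themis cKO, so both groups carried the OT-I receptor and received IL-2. The labels do not spell out cKO, and the Cre driver, the exons removed, the strain and the age of the animals are not given in the sources used here. Since nothing says that the replicates were separate animals or cultures, a p-value here covers the spread among these libraries alone, and that spread may be technical.

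IRF4 is an interferon regulatory factor family member that is induced through the T cell receptor and binds DNA together with AP-1 proteins such as BATF and JUN. BLIMP-1, the zinc finger repressor encoded by Prdm1, is known for promoting terminal effector differentiation of CD8 T cells and plasma cell differentiation of B cells. NFIL3, also called E4BP4, is a basic leucine zipper repressor that is known from NK cell development and from the circadian clock, and BHLHE40, also called DEC1 or STRA13, is a basic helix-loop-helix repressor that is induced by activation in T cells and binds E-boxes. THEMIS is a T lineage protein that acts in T cell receptor signalling.

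The proximal promoters are shown because the 4 genes were all on the lower side of the table in cKO libraries at equal depth, though Prdm1 and Bhlhe40 were not when scaling was centred on the table. RefSeq's promoter table for GRCm38.p6 matched 3 of the 4 genes, all but Bhlhe40. Each run below holds the 250 bases before the start that the RefSeq table uses for the gene, 5′ to 3′ on the gene's strand, and capitals mark a motif match. For Irf4 that start is the 5′ end of the gene's span. For Prdm1 and Nfil3 it lies inside the span, 69.8 kb and 1.84 kb downstream of its 5′ end, so other annotated starts of these genes are not shown. The windows were chr13:30748983-30749232 on the plus strand for Irf4, chr10:44458749-44458998 on the minus strand for Prdm1 and chr13:52981040-52981289 on the minus strand for Nfil3.
Irf4: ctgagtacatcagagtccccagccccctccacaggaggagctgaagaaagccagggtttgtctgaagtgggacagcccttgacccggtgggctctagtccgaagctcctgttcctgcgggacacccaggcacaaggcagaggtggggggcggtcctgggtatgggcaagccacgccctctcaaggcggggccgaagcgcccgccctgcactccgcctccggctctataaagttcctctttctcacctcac
Prdm1: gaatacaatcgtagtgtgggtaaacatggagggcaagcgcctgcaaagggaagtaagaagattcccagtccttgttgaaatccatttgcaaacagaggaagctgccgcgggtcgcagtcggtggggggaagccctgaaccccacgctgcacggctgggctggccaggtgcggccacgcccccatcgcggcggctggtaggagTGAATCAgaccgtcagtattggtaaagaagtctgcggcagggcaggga
Nfil3: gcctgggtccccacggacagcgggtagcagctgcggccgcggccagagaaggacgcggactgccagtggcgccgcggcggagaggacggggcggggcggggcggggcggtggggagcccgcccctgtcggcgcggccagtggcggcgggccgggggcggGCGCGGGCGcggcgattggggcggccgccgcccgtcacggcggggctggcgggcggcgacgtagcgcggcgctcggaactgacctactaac
The capitals in the Prdm1 window mark TGAATCA, a match to the pattern TGANTCA that lies 48 to 42 bases before that start. This pattern leaves the centre of the AP-1 site free and is wider than the usual AP-1 consensus, which TGAATCA does not meet. The pattern was held by 6.75% of the 32851 RefSeq promoters, and by 8.5% of the 600 promoters of genes called lower at equal depth. In the Nfil3 window the capitals mark GCGCGGGCG, a match to the pattern GCGNGGGCG that lies 91 to 83 bases before that start. This pattern, searched as an EGR site, leaves its 4th base free, which is a C in the match. It was held by 4.70% of all promoters and 7.67% of those of lower genes. These shares were not matched for G and C content, which was high in the Nfil3 window. The Irf4 window held none of the 9 motifs searched on both strands. No window of the 3 genes held the other 7 motifs, which were the CRE TGACGTCA (in 1.55% of all promoters and 2.33% of those of lower genes), the IRF element GAAANNGAA (7.13% and 13.2%), the BLIMP-1 site NAGNGAAAG (7.26% and 7.83%), the STAT site TTCNNNGAA (7.02% and 7%), the E-box CACGTG (6.02% and 6%), the NFIL3 site TTANGTAA (2.06% and 1.33%) and the NR4A site AAAGGTCA (1.34% and 0.667%). These are matches of letters and not measured binding. The Nfil3 window was 81.6% G and C, against 63.6% for Irf4, 59.2% for Prdm1 and a median of 52.4% over all promoters, and 0.746% of promoters reached the Nfil3 value.

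The table's counts summed to 946766 to 1054442 per WT library and to 424605 to 437437 per cKO library. These sums cover the table's genes only, so the depth of the libraries is unknown. The log2 ratio of a gene's mean counts in cKO and WT was never between −0.94 and 1.06, an empty interval centred at 0.06. Genes thus appear to have been kept for their fold change, and passing a test within such a table is not independent evidence of a difference. With the genotypes taken at equal depth, edgeR's quasi-likelihood test called 602 of 794 genes lower (75.8%) and 192 higher (24.2%) in cKO. Scalings that centre the table on itself moved the median log2 fold change of all tested genes by 1.29 to 1.30 and gave 214 lower and 224 higher with TMM. Under TMM no gene had a log2 fold change between 0.37 and 2.36, so the empty interval no longer lay around 0. Themis, the targeted gene (Entrez 210757), had counts of 5212, 5882 and 5171 in WT libraries 1 to 3 and of 970, 1247 and 1204 in cKO libraries 1 to 3. Its mean in cKO was 21.0% of WT (log2 fold change −2.25 ± 0.11 SE, edgeR adjusted p = 5.16e-08), with every cKO library below every WT library.

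All 4 factors were lower in cKO at equal depth, by 5.15-fold for Irf4, 4.40-fold for Nfil3, 2.21-fold for Prdm1 and 2.03-fold for Bhlhe40. Of all tested genes in the table, 75.8% were called lower and 100% in either direction, so the count of 4 of 4 stands near the background of this selected table. With TMM and size factors computed over the table, Irf4 and Nfil3 were still called lower, whereas Prdm1 and Bhlhe40 took a positive sign. These are bulk libraries, in which fewer cells that express a gene and less RNA per cell cannot be told apart.

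**Figure D1:**
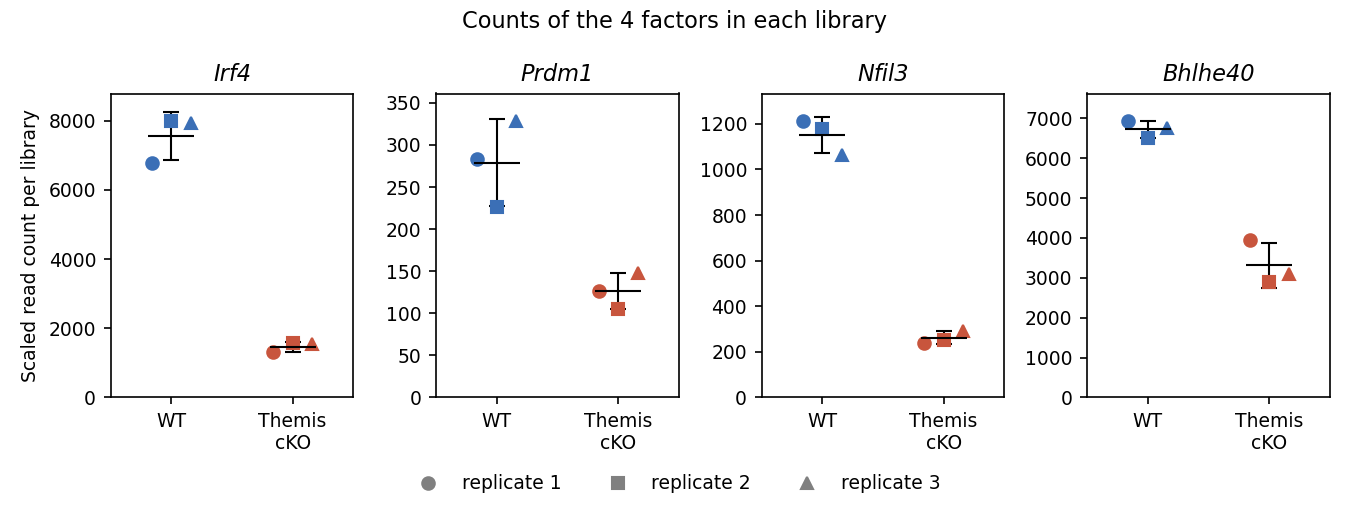
Scaled read count per library (vertical axis, linear from 0) for Irf4, Prdm1, Nfil3 and Bhlhe40 in WT (blue) and Themis cKO (red) libraries at equal depth, with the marker shape giving the replicate and black bars the mean ± SD of 3 libraries. The genotypes are separate for each gene, with the lowest WT library at 4.32 times the highest cKO library for Irf4 and at 1.53 times for Prdm1, whose sign, like that of Bhlhe40, turned when scaling was centred on the table.

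Irf4 (Entrez 16364) lies at chr13:30749233-30766981 on the plus strand of GRCm38, and its longest RefSeq-matched transcript has 9 exons and 4764 bases. Its counts were 6391, 8126 and 8267 in WT libraries 1 to 3 and 1295, 1594 and 1520 in cKO libraries 1 to 3. Every WT library was far above every cKO library, and the lowest WT library was 4.32 times the highest cKO library after scaling. The mean scaled count was 7566 ± 689 in WT and 1469 ± 144 in cKO (SD, n = 3 each), which leaves 19.4% of the WT level. The log2 fold change was −2.36 ± 0.10 (SE), with an edgeR quasi-likelihood adjusted p of 2.63e-08 by Benjamini-Hochberg over 794 genes. With TMM over the table it was −1.06 (edgeR adjusted p = 1.20e-05). The authors' deposited table gives Irf4 a log2 fold change of −1.95 with a q-value of 0.00452.

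Prdm1 (Entrez 12142), the gene of the repressor BLIMP-1, lies at chr10:44437174-44528558 on the minus strand, with 7 exons and 4025 bases in its longest RefSeq-matched transcript. It had the lowest counts of the 4, with 267, 230 and 342 in WT libraries 1 to 3 and 126, 107 and 146 in cKO libraries 1 to 3. The WT libraries stood above the cKO libraries, though the nearest pair, WT 2 and cKO 3, was 1.53-fold apart. The mean scaled count was 279 ± 51.2 in WT and 127 ± 21.0 in cKO (SD, n = 3 each), or 45.3% of WT. At equal depth the log2 fold change was −1.14 ± 0.19 (SE; edgeR adjusted p = 2.34e-04), whereas with TMM over the table it was 0.17 (edgeR adjusted p = 0.478). The authors' deposited table gives −0.88 with a q-value of 0.137, so Prdm1 did not pass 0.05 in the authors' test.

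Nfil3 (Entrez 18030) lies at chr13:52967209-52982878 on the minus strand, and its longest RefSeq-matched transcript has 2 exons and 2026 bases. Its counts were 1144, 1197 and 1107 in WT libraries 1 to 3 and 236, 258 and 290 in cKO libraries 1 to 3. The WT libraries were close to each other and well above the cKO libraries, with the lowest WT library at 3.63 times the highest cKO library. The mean scaled count was 1151 ± 78.0 in WT and 261 ± 28.3 in cKO (SD, n = 3 each), or 22.7% of WT. The log2 fold change was −2.14 ± 0.13 (SE; edgeR adjusted p = 1.81e-07), and with TMM it was −0.83 (edgeR adjusted p = 2.40e-04). In the authors' deposited table Nfil3 has a log2 fold change of −1.81 and a q-value of 1.53e-04, the lowest q-value of the 4 factors.

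Bhlhe40 (Entrez 20893) lies at chr6:108660629-108666925 on the plus strand, with 5 exons and 3113 bases in its longest RefSeq-matched transcript. Its counts were 6540, 6615 and 7040 in WT libraries 1 to 3 and 3931, 2940 and 3062 in cKO libraries 1 to 3. The WT libraries were nearly level, cKO library 1 stood above the other cKO libraries, and the genotypes did not overlap. The mean scaled count was 6730 ± 213 in WT and 3314 ± 567 in cKO (SD, n = 3 each), or 49.2% of WT. At equal depth the log2 fold change was −1.02 ± 0.11 (SE; edgeR adjusted p = 1.41e-05), but with TMM it was 0.29 (edgeR adjusted p = 0.0495). The authors' deposited table gives −0.75 with a q-value of 0.177. The first 306 bases of Bhlhe40 overlap the antisense RNA 0610040F04Rik, and no source used here says whether the authors counted by strand, so reads of that stretch cannot be told apart.

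In the authors' deposited test 2 of the 4 factors, Irf4 and Nfil3, were lower with a q-value under 0.05, against 55% of the 854 genes of the table. At equal depth the scaled counts of all 4 did not overlap and were lower in cKO, as for 75.7% of tested genes. With TMM over the table, 2 of 4 were called lower (Irf4 and Nfil3, against 27% of tested genes) and 1 of 4 higher (Bhlhe40, against 28.2%). With DESeq2 size factors over the table, 2 of 4 were called lower in edgeR (27.3% of tested genes) and in DESeq2's own test (25.2%), and none was called higher, against 27.8% and 27.6% of genes. Adjusted over the number of genes that the authors' p- and q-values imply, all 4 remained called lower at equal depth, against 70.3%.

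**Figure D2:**
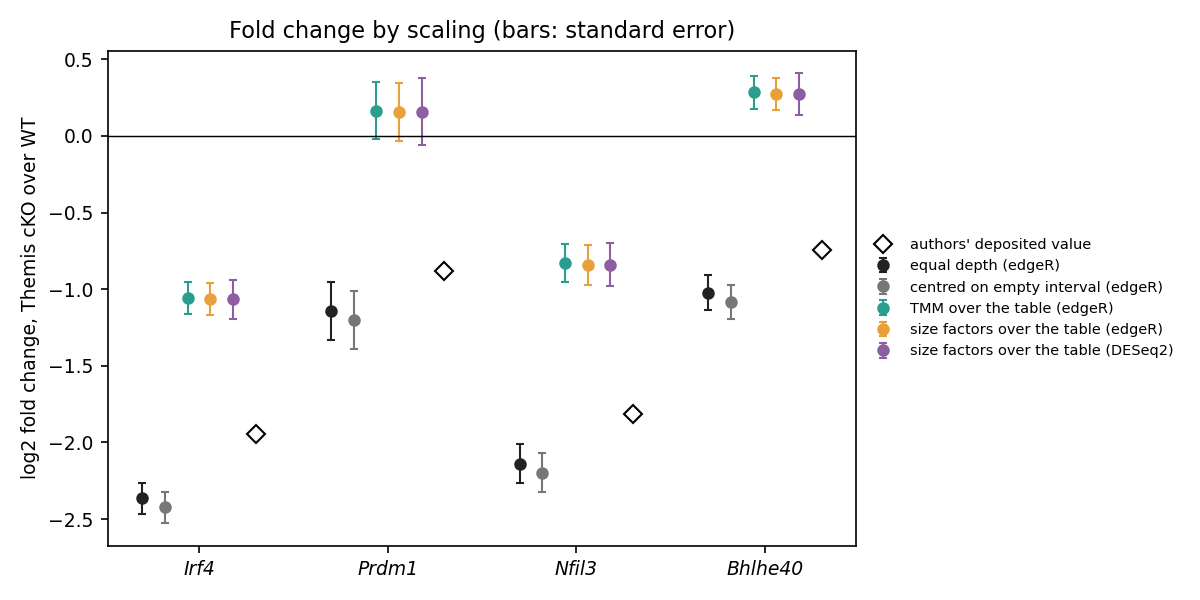
Log2 fold change of cKO over WT (vertical axis) for each of the 4 factors under each scaling, with bars for the standard error of the fits. Open diamonds are the authors' deposited values, which come without an error and differ from the ratios of these mean counts. Irf4 and Nfil3 lie below 0 in each case, while Prdm1 (0.16 to 0.17) and Bhlhe40 (0.27 to 0.29) lie above 0 when scaling is centred on the table and below 0 at equal depth and in the authors' values.

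Among the 602 genes called lower at equal depth, the median log2 fold change was −1.64, and Irf4 and Nfil3 lay beyond it. A larger drop than that of Irf4 was seen in 135 of those genes (22.4%), and than that of Nfil3 in 172 (28.6%). Prdm1 and Bhlhe40 lay near the edge of the table's selection, since 480 genes (79.7%) fell further than Prdm1 and 534 (88.7%) further than Bhlhe40. By mean WT count, which also depends on transcript length, Irf4 ranked 34 and Bhlhe40 ranked 41 of the 794 tested genes, while Nfil3 ranked 190 and Prdm1 ranked 337.

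**Figure D3:**
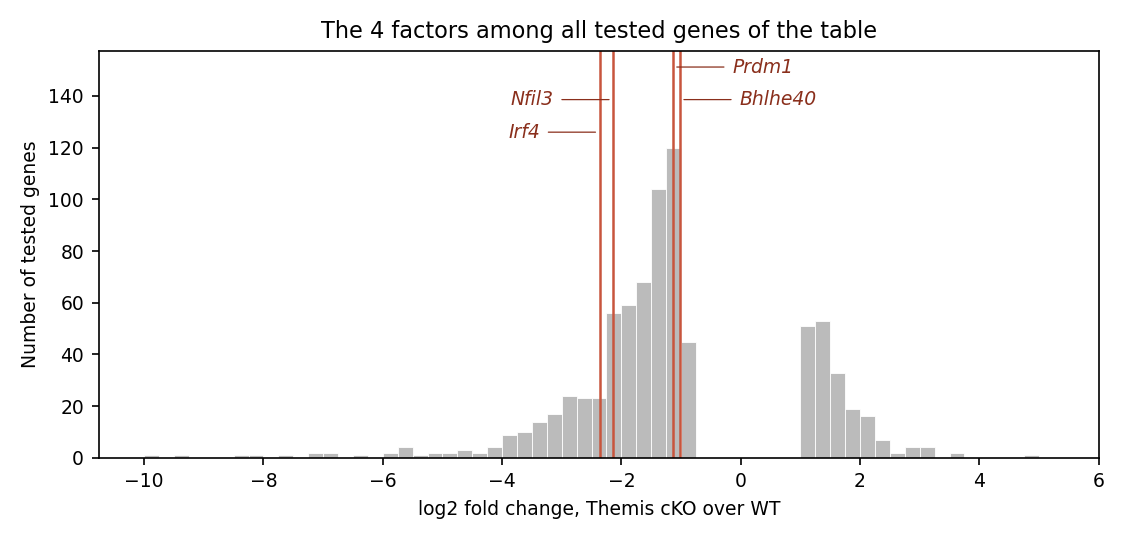
Number of tested genes (vertical axis) by log2 fold change of cKO over WT at equal depth in bins of 0.25 (horizontal axis), with red lines for the 4 factors. Irf4 at −2.36 and Nfil3 at −2.14 lie among the lower genes, and Prdm1 at −1.14 and Bhlhe40 at −1.02 lie next to the empty interval; with TMM over the table the last 2 were at 0.17 and 0.29.

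To compare levels between the factors, scaled counts were divided by transcript length. In WT libraries Bhlhe40 had the highest level at 2162 ± 68.6 scaled counts per kb (SD, n = 3). Irf4 followed at 1588 ± 145, Nfil3 at 568 ± 38.5 and Prdm1 at 69.3 ± 12.7 scaled counts per kb. Each neighbour in this order was separate in all 3 libraries, since the lowest Bhlhe40 library (2089) was above the highest Irf4 library (1677). The order was the same in cKO libraries, with Bhlhe40 at 1065 ± 182, Irf4 at 308 ± 30.2, Nfil3 at 129 ± 14 and Prdm1 at 31.4 ± 5.23 scaled counts per kb, again without overlap between neighbours. The level of Bhlhe40 was 1.36 times that of Irf4 in WT and 3.45 times in cKO. The level of Nfil3 was 8.19 times that of Prdm1 in WT and 4.11 times in cKO.

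The spread between libraries differed among the factors. In WT libraries the SD was 3.17% of the mean for Bhlhe40, 6.78% for Nfil3, 9.11% for Irf4 and 18.3% for Prdm1. In cKO libraries it was 17.1% for Bhlhe40, 10.8% for Nfil3, 9.78% for Irf4 and 16.6% for Prdm1. Counting error alone would give 5.98% in WT and 8.90% in cKO for Prdm1, and 1.22% and 1.74% for Bhlhe40, so the libraries differed from each other by more than counting error in both genotypes. The wider spread of Bhlhe40 in cKO came with library 1 at a scaled count of 3959, against 2892 and 3091 in libraries 2 and 3.

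Ratios of one factor's counts to another's within a library do not depend on how libraries are scaled. By overlap of libraries alone, Irf4 went with Nfil3 and Prdm1 with Bhlhe40, a description that follows the fold changes above. The ratio of Irf4 to Nfil3 was 6.56 in WT and 5.61 in cKO (geometric means, n = 3 each), a log2 difference of −0.23, and its libraries overlapped. The ratio of Prdm1 to Bhlhe40 was 0.0411 in WT and 0.0383 in cKO, a log2 difference of −0.10, and its libraries overlapped too. Each of the 4 ratios across these pairs was separate between genotypes.

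Irf4 relative to Prdm1 went from 27.3 in WT to 11.6 in cKO, a log2 difference of −1.23. Relative to Bhlhe40, Irf4 went from 1.12 to 0.446 (log2 difference −1.33). These ratios were lower in every cKO library than in any WT library, by more than the SD of the log2 ratios, which was 0.17 to 0.38 over these 4 groups. Nfil3 relative to Bhlhe40 went from 0.171 to 0.0795 (log2 difference −1.10). Prdm1 relative to Nfil3 went from 0.241 to 0.482 (log2 difference 1.00), with every cKO library above every WT library.

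A two-sided exact permutation test over the 6 libraries cannot give a p below 0.1 with 3 against 3, and the 4 separate ratios each reached 0.1 (0.15 after Benjamini-Hochberg over 6 ratios). For Irf4 to Nfil3 the exact p was 0.2 (adjusted 0.24), and for Prdm1 to Bhlhe40 it was 0.7 (adjusted 0.70). No ratio passed 0.05 in this design. A p above the threshold does not show that a ratio stayed equal.

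**Figure D4:**
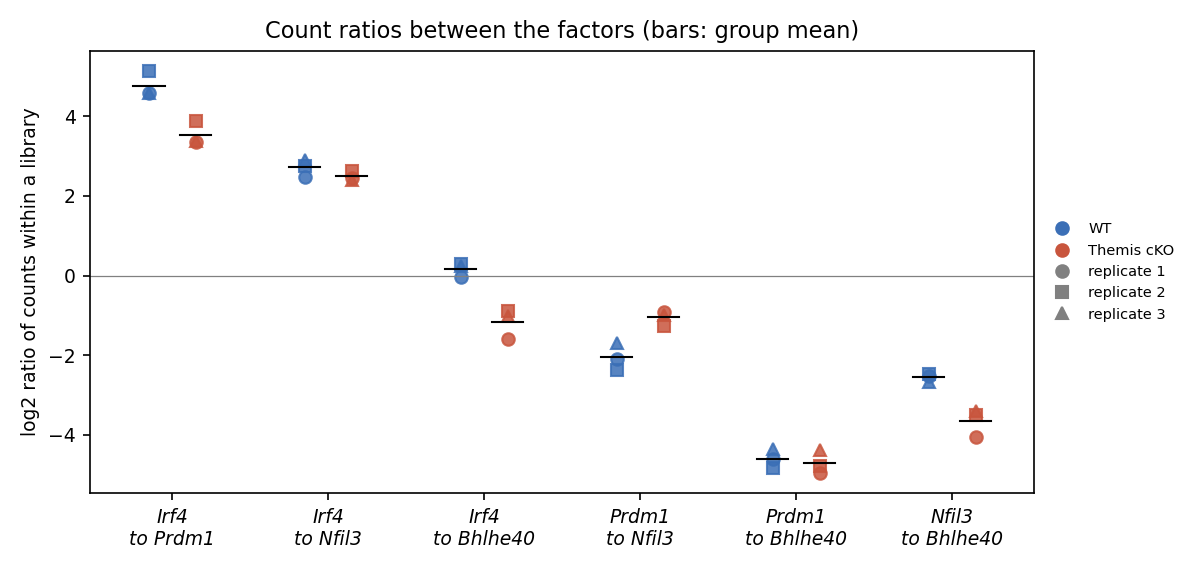
Log2 ratio of the counts of a pair of factors within a library (vertical axis) for the 6 pairs, WT in blue and Themis cKO in red, with marker shape for the replicate and a black bar for the mean of 3 libraries. The libraries of the genotypes overlap for Irf4 to Nfil3 and for Prdm1 to Bhlhe40 and are separate for the other 4 ratios.

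The tested genes most like each factor were taken by the distance between log2 scaled counts over the 6 libraries, each gene centred on its own mean. This distance is a description and follows the size of the genotype difference. Nearest to Irf4 were Nr4a1 (distance 0.245), which encodes the orphan nuclear receptor NUR77, Slc2a3 (0.247), a glucose transporter gene, and Themis itself (0.309). The same rule gave Themis (0.246), Nr4a1 (0.247) and Slfn8 (0.258), a Schlafen family gene, for Nfil3. At equal depth Nr4a1 was at a log2 fold change of −2.25, Slc2a3 at −2.46 and Slfn8 at −2.03. Nfil3 stood 14th in closeness to Irf4 at a distance of 0.444, while Prdm1 (1.63) and Bhlhe40 (1.73) were far from it.

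Nearest to Prdm1 were Tnfsf4 (0.261), the OX40 ligand gene, Cysltr2 (0.286), a leukotriene receptor gene, and Ptger2 (0.289), a prostaglandin E2 receptor gene. Their log2 fold changes at equal depth were −1.21, −1.13 and −1.13, and each turned positive with TMM (0.092, 0.18 and 0.17). The genes nearest to Bhlhe40 were Parp10 (0.169), an ADP-ribosyltransferase gene, Ms4a6d (0.206), a membrane-spanning 4A gene, and Dyrk3 (0.211), a protein kinase gene. They were at −0.98, −1.01 and −1.02 at equal depth and at 0.33, 0.30 and 0.29 with TMM. Prdm1 and Bhlhe40 were 0.549 apart.

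Of 9 listed IRF family genes the table held 3, each called lower at equal depth, against 75.8% of all tested genes. With TMM Irf4 and Irf7 were called lower, against 27% of tested genes, and Irf5 was at 0.079. The median log2 fold change of the 3 at equal depth was −2.36, the value of Irf4 itself. Without Irf4 it was −1.90, against −1.34 over all tested genes. Irf7, the interferon-induced family member, had a scaled count of 7779 ± 536 in WT and 1308 ± 179 in cKO (log2 fold change −2.57 ± 0.11 SE, edgeR adjusted p = 2.67e-08). Irf5 had 77.2 ± 15.5 in WT and 33.0 ± 15.7 in cKO (−1.23 ± 0.35 SE, edgeR adjusted p = 0.00620), with a q-value of 0.0964 in the authors' deposited table.

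Of 14 listed AP-1 and NFAT partners of IRF4, 5 were in the table (Batf2, Batf3, Jun, Junb and Fos). All 5 were called lower at equal depth, against 75.8% of all tested genes. With TMM 2 (Batf2 and Batf3) were called lower and 1 (Junb) higher, against 27% and 28.2% of tested genes. The median log2 fold change of the 5 was −1.67 at equal depth, against −1.34 over all tested genes. Jun went from 2674 ± 164 to 976 ± 82.1 scaled counts (log2 fold change −1.45), and Junb from 3185 ± 63.4 to 1584 ± 124 (−1.01 at equal depth and 0.30 with TMM). Batf3, a BATF family gene, was low in both genotypes, at 36.1 ± 7.68 scaled counts in WT and 5.01 ± 2.68 in cKO (−2.82 ± 0.40 SE, edgeR adjusted p = 8.06e-05). Neither Batf nor the NFAT genes of the list are in the table, so they were not analysed here.

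For BLIMP-1, Prdm1 was the only gene in the table among 13 listed PRDM family genes, relatives and antagonists. Among 12 listed genes reported as repressed by BLIMP-1 in lymphocytes, 5 were in the table. At equal depth 3 were higher (Tcf7, Klf2 and S1pr1) and 2 lower (Myc and Fos), against 24.2% and 75.8% of all tested genes. With TMM 4 were called higher (Myc too) and none lower, against 28.2% and 27%. The median log2 fold change of the 5 at equal depth was 1.15, against −1.34 over all tested genes. It is the value of Klf2 alone, in a list that split both ways. Tcf7, which encodes the memory factor TCF-1, had a scaled count of 4595 ± 1001 in WT and 13253 ± 602 in cKO (log2 fold change 1.53 ± 0.14 SE, edgeR adjusted p = 3.50e-06), while the authors' deposited table gives it a q-value of 0.456. In that table neither Klf2 (q-value 0.553) nor S1pr1 (0.420) passed 0.05 either, whereas the lower genes Myc (1.13e-05) and Fos (6.77e-06) did. Myc, a growth regulator, went from 15776 ± 549 to 7540 ± 343 scaled counts (−1.07 at equal depth, 0.24 with TMM). Whether any of these genes followed the Prdm1 level was not tested.

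For NFIL3 and BHLHE40, the listed relatives were few. Of 17 listed PAR bZIP and clock genes 3 were in the table (Nfil3, Ciart and Npas2). Each was called lower at equal depth, as were 75.8% of all tested genes. Their median was −2.12, and −1.54 without Nfil3, against −1.34 over all tested genes. With TMM 2 were called lower, against 27% of tested genes, and Npas2 was at 0.34. Ciart, a circadian repressor gene, went from 747 ± 34.2 to 172 ± 25.1 scaled counts (log2 fold change −2.12 ± 0.14 SE, edgeR adjusted p = 4.26e-07), beside −2.14 for Nfil3. Npas2, a clock activator gene, went from 165 ± 8.18 to 84.6 ± 8.61 scaled counts (−0.96 at equal depth, 0.33 to 0.34 with scalings centred on the table). Of 20 listed bHLH and ID genes, the table held Bhlhe40 and Myc. Both were called lower at equal depth, against 75.8% of all tested genes. Both were called higher with TMM (0.29 and 0.24), against 28.2%. Bhlhe41, the closest relative of Bhlhe40, is not in the table.

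Among 25 listed effector and memory T cell factors, 7 were in the table. At equal depth 6 were lower and 1 (Tcf7) higher, against 75.8% and 24.2% of all tested genes. Their median was −1.14, the value of Prdm1 itself, against −1.34 over all tested genes. With TMM 3 were called lower (Irf4, Nfil3 and Batf3) and 2 higher (Bhlhe40 and Tcf7), against 27% and 28.2%. Without the 4 factors themselves the table held 3 genes of the list, with a median of −1.09 at equal depth. Of these, Batf3 and Ikzf2 were lower and Tcf7 higher at equal depth, and Ikzf2 was at 0.22 with TMM. Ifng, which encodes interferon gamma, was the 1 gene in the table of 9 listed cytokines tied to these factors, and it went from 2102 ± 47.4 to 304 ± 48.2 scaled counts (log2 fold change −2.79 ± 0.13 SE, edgeR adjusted p = 3.94e-08).

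Of 19 listed T cell receptor-induced early genes, 13 were in the table and 13 were called lower at equal depth, while with TMM 7 were called lower and 1 (Myc) higher. Of all tested genes 75.8% were called lower at equal depth and 27% with TMM. The list's median log2 fold change at equal depth was −1.94, against −1.34 over all tested genes, −2.36 for Irf4 and −2.14 for Nfil3. Nr4a2 was at −3.48 ± 0.15 and Cd69, an early activation marker gene, at −1.94 ± 0.07 (SE). Of 16 listed genes of glucose uptake and glycolysis 8 were in the table and 8 were called lower at equal depth, against 75.8% of all tested genes, while with TMM 1 (Slc2a3) was called lower and 2 (Aldoa and Pgk1) higher. The list's median of −1.30 at equal depth was close to the −1.34 of all tested genes. At equal depth Slc2a3 was at −2.46 ± 0.08 and Tpi1, a triose phosphate isomerase gene, at −1.38 ± 0.06 (SE).

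**Figure D5:**
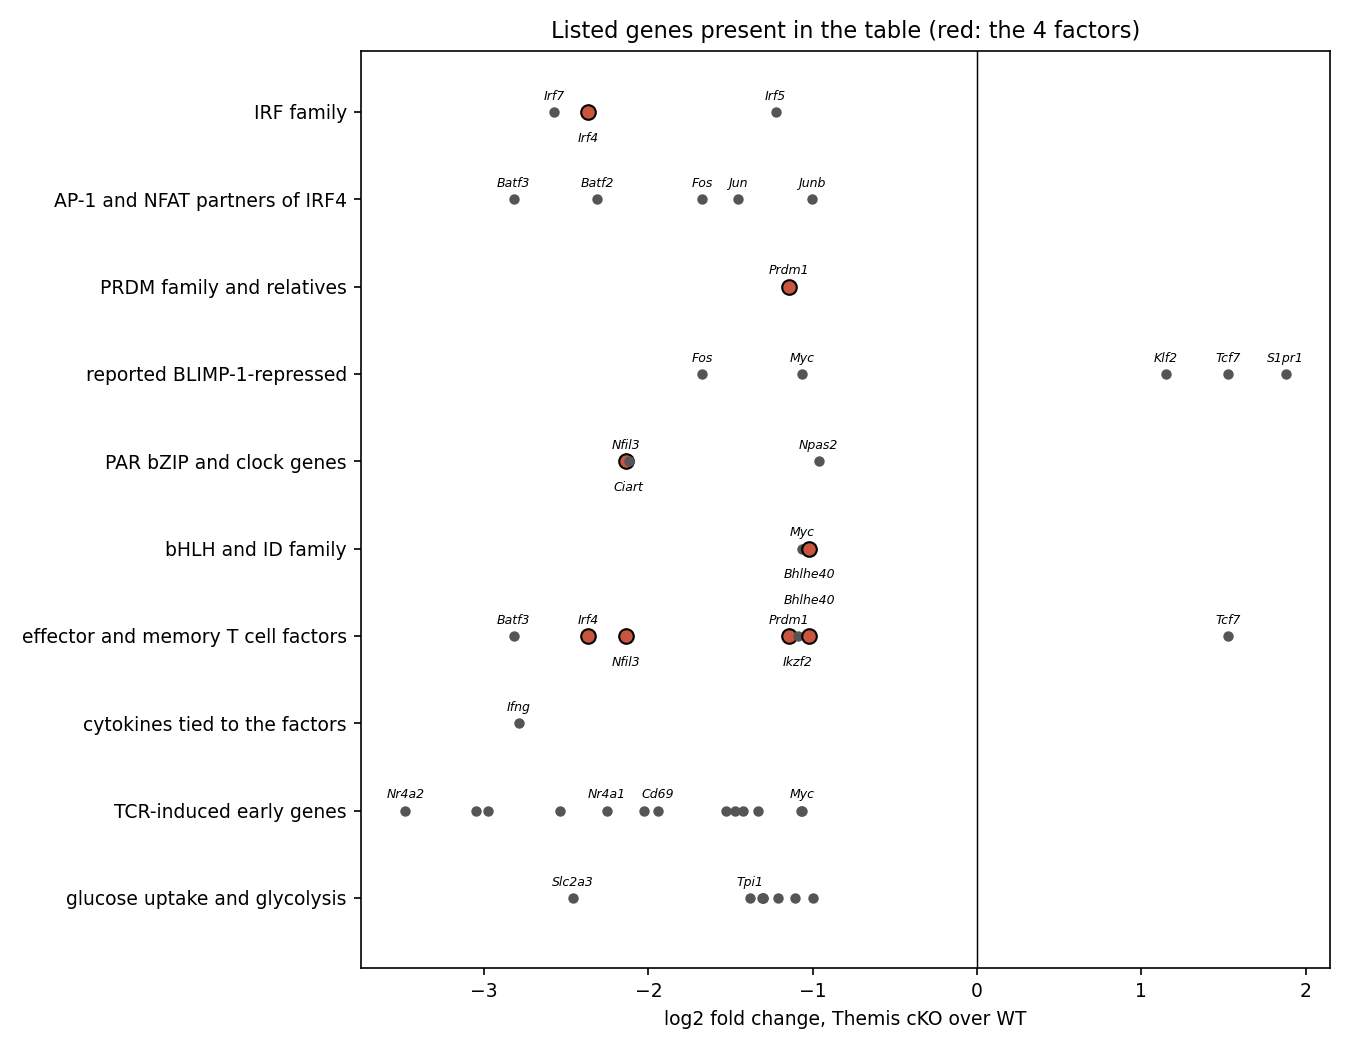
Log2 fold change of cKO over WT at equal depth (horizontal axis) for the listed genes present in the table, 1 row per list, with the 4 factors in red; in the last 2 rows only some genes are named. The IRF family, the IRF4 partners, the T cell receptor-induced genes and the glycolysis genes of the table all lie below 0. So do 75.8% of all tested genes. Tcf7, Klf2 and S1pr1 lie above 0. With TMM Irf5, Junb, Prdm1, Npas2, Myc, Bhlhe40, Ikzf2 and some genes of the last 2 rows lay above 0 as well.

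Markers of other cell types also differed between the genotypes. Of 11 listed NK cell markers 6 were in the table and 6 were called higher in cKO, against 24.2% of all tested genes, with summed scaled counts of 436 to 627 in WT and 1054 to 1834 in cKO. Klri2 and Klrb1c were at log2 fold changes of 1.32 and 1.23. NFIL3 is a factor of NK cells, and Nfil3 was lower in the genotype in which these markers were higher. The same holds for every other gene called lower at equal depth. Whether Nfil3 and these markers are linked was not tested, and bulk libraries do not show which cells carried the markers. Among B cell markers, Cd79b was at 1.36 (41.9 ± 2.94 scaled counts in WT and 108 ± 37.7 in cKO) and Ms4a1 at 1.51 (18.9 ± 9.01 and 54.3 ± 36.1), and the libraries of the genotypes overlapped for Ms4a1. None of the listed plasma cell genes (Jchain, Sdc1, Xbp1, Tnfrsf17 and Mzb1) is in the table.

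Of 14 listed myeloid and dendritic cell markers 5 were in the table, with sums of 772 to 1054 in WT and 752 to 1084 in cKO. At equal depth 3 were higher (Itgax, Fcer1g and H2-Eb1) and 2 lower (Mpeg1 and H2-Ab1), against 24.2% and 75.8% of all tested genes. With TMM 3 were called higher and 1 lower, against 28.2% and 27%. H2-Eb1 was at 1.67, with libraries of the genotypes that overlapped, and H2-Ab1 at −1.73. Fcer1g was at 1.53 and Mpeg1 at −2.91. Of 7 listed CD4 and regulatory T cell markers 2 were in the table, Ikzf2 and Ctla4, which activated CD8 T cells also express, at −1.09 and −1.43 at equal depth, and Ikzf2 was at 0.22 with TMM. No listed marker in the table was at 0 in a whole group. The part of other cells in the levels of Irf4, Prdm1, Nfil3 and Bhlhe40 was not tested. None of the 8 listed CD8 T cell markers is in the table, so the labelled cell type could not be checked here.

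The 4 genes lie apart from other genes of the table. The nearest table gene to Irf4 was Serpinb1a at 2080 kb, and the nearest to Nfil3, on the same chromosome, was Unc5a at 1960 kb. The nearest to Prdm1 was Lilr4b at 6950 kb, and to Bhlhe40 Cacna2d4 at 10600 kb.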

How the data were processed

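RNA of cultured OT-I cells was sequenced by DNBSEQ-G400 (per the labels' protocols) in 3 WT and 3 Themis cKO libraries grouped by the genotype in their labels. The submitters' processing notes name the build GRCm38.p6 and the tools RSEM 1.2.12, HISAT2 2.0.4, DESeq2 1.4.5 and Bowtie2 2.2.5, without their roles. The authors deposited an estimated count of reads per gene and library, per the file headers and the values, of which 66.1% are whole. All 24 values of the 4 factors are whole. Per the file headers the authors also gave each gene a p-value, a q-value and a log2 fold change (cKO over WT). For the 4 factors the latter differs from the log2 ratio of mean counts (Irf4 −1.95 against −2.37, Bhlhe40 −0.75 against −1.02). For Themis both were −2.25. How the authors' values were computed is not stated, so they are not read here as another scaling. The rule by which the 854 genes were kept is not stated in those sources. The authors' p- and q-values imply 16996 tested genes, since dividing them gave whole ranks (within 0.02) for 70.9% of 426 genes.

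Rounded counts entered a genotype-only quasi-likelihood fit in edgeR 4.0.16 (R 4.3.3), for genes passing edgeR's filter at a smallest count of 10, with Benjamini-Hochberg adjustment at 0.05. A scaled count is a count divided by a median-of-ratios factor computed within each genotype (0.944 to 1.04), the genotypes being taken at equal depth, which the library totals, not used here, would settle. Alternatives were TMM, DESeq2 1.42.0 with its size factors or the scaling above, no scaling, no filter, a limit of 0.01, another pseudocount for the ratios (2 in place of 0.5), adjustment over the implied number of genes, the replicate number as a block, leaving out each library and, added after seeing the data, centring on the empty interval. The fit was tested on simulated counts. Replicate libraries differed by more than counting error (chi-square per degree of freedom 6.34 to 19.7). This does not show that they came from separate animals, cultures or RNA.

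The 4 genes and the lists were chosen with earlier results of these data known. Beyond them the text names Themis, up to 2 genes per list with the smallest edgeR p, the 3 genes nearest to each factor (predicted genes and pseudogenes left out), genes that make up a count of 5 or fewer, and Klf2, S1pr1 and the nearest genes on the chromosome, which were named after their values were seen. One listed marker, and the sum of its list, is not reported here. Lengths came from the longest GENCODE M21 transcript matched to RefSeq, positions and promoters from RefSeq on GRCm38.p6 (842 of 854 identifiers matched).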

Additional observations from a re-analysis of the deposited data

How the results depend on the processing

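The direction and call of Irf4, Prdm1, Nfil3, Bhlhe40 and Themis were the same under the 12 alternatives that do not scale over the table, of which 11 keep the genotypes at equal depth and 1 centres on the empty interval. Leaving out 1 library at a time gave log2 fold changes of −2.48 to −2.28 for Irf4, −1.26 to −0.98 for Prdm1, −2.22 to −2.07 for Nfil3, −1.16 to −0.94 for Bhlhe40 and −2.32 to −2.15 for Themis. Leaving out 1 library called 797 to 810 genes, 601 to 616 lower and 191 to 197 higher, and 720 to 854 genes were called over all alternatives that do not scale over the table, 558 to 650 lower and 162 to 204 higher. Centring on the empty interval, added after seeing the data, gave −2.42 for Irf4, −1.20 for Prdm1, −2.20 for Nfil3 and −1.08 for Bhlhe40.

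Scaling centred on the table shifts every gene upward by its construction. In the order TMM, DESeq2 size factors in edgeR and DESeq2 with its own size factors, 438, 438 and 451 genes were called. The numbers tested were 794, 794 and 854. Of the called genes 214, 217 and 215 were lower and 224, 221 and 236 higher. Irf4 stayed lower at −1.06, −1.07 and −1.07, and Nfil3 at −0.83, −0.84 and −0.84. Prdm1 turned to 0.17, 0.16 and 0.16 (edgeR adjusted p = 0.478 and 0.50, DESeq2 adjusted p = 0.557) and Bhlhe40 to 0.29, 0.27 and 0.27 (edgeR adjusted p = 0.0495 and 0.0543, DESeq2 adjusted p = 0.0790). In the same order the sign turned for Irf5 (0.079, 0.073, 0.075), Junb (0.30, 0.29, 0.29), Myc (0.24, 0.23, 0.23), Npas2 (0.34, 0.33, 0.33), Ikzf2 (0.22, 0.21, 0.21), Tnfsf4 (0.092, 0.083, 0.083), Cysltr2 (0.18, 0.17, 0.17), Ptger2 (0.17, 0.16, 0.16), Parp10 (0.33, 0.32, 0.32), Ms4a6d (0.30, 0.29, 0.29) and Dyrk3 (0.29, 0.28, 0.28), and Jun, Tpi1 and Ctla4 were no longer called.

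Adjusted over the 16996 implied genes, the 4 factors stayed called by edgeR (adjusted p = 5.62e-07 for Irf4, 0.00500 for Prdm1, 3.88e-06 for Nfil3 and 3.02e-04 for Bhlhe40), while Irf5 (0.133) was not. The log2 difference of the Prdm1 to Bhlhe40 ratio turned to 0.022 without WT replicate 3 and to 0.026 without cKO replicate 1, over a range of −0.26 to 0.026; the cause was not tested. Deviations of libraries with the same replicate number correlated at −0.0616, −0.0457 and −0.145 over 794 genes. Those with different numbers correlated at −0.031 to 0.102. These values cannot show whether the numbers pair libraries. Over libraries 1 to 3, Irf4 deviated by −0.16, 0.08 and 0.07 in WT and by −0.17, 0.10 and 0.07 in cKO (log2). Prdm1 deviated by 0.04, −0.29 and 0.25 in WT and by 0.02, −0.25 and 0.23 in cKO. Bhlhe40 had 0.04, −0.05 and 0.01 in WT and 0.27, −0.18 and −0.09 in cKO. Nfil3 went the other way, with 0.08, 0.04 and −0.11 in WT and −0.13, −0.04 and 0.17 in cKO. With the replicate number as a block the log2 fold changes were −2.37 ± 0.08 for Irf4 and −1.14 ± 0.14 for Prdm1 (SE). They were −2.14 ± 0.16 for Nfil3 and −1.04 ± 0.10 for Bhlhe40, and 793 genes were called. The unknown depths of the libraries limit every fold change, since an error in equal depth would shift all genes alike.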
